A study of Homo sapiens with 14 samples.

Results

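Untreated SIGM5 cells and untreated K562 cells of the clone K01 were compared for what each leukaemia line expresses. The libraries were chosen by their labels, with earlier results of these data known, as those given only the solvent DMSO in these 2 lines. They are 4 of the 14 libraries of the series, 2 for each line. SIGM5 is an acute myeloid leukaemia line of monocytic type. K562 is a line from a chronic myeloid leukaemia in blast crisis with erythroid features, and K01 is its clone with the TET2 genotype given as TET2+/+ in the series text. Exposure to DMSO lasted 24 h in both. The series as a whole asked how the TET inhibitor TETi76 affects these cells, and its remaining libraries hold SIGM5 and K01 cells given TETi76, K01 cells given ascorbate with or without TETi76, and K18, the TET2-/- K562 clone, under DMSO. Each K562 genotype is 1 clone. The labels number the libraries but do not say whether they came from separate cultures, and the lines were grown in different media, IMDM for SIGM5 and RPMI for K562. Medium and line therefore cannot be told apart.

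Polyadenylated RNA was sequenced in all of them. The SIGM5 libraries held 18893636 and 21569319 counts. The K01 table gives FPKM, fragments per kilobase of transcript scaled to the size of the library, without totals, and depths of about 9.05 and 6.8 M reads (M, mega) were estimated from the value of 1 read. SIGM5 counts were put on a like scale as CPM, each count divided by the library total in M, over the transcript length in kilobases (CPM per kb). Since the tables were normalized separately, no test was run between the lines and no fold is given. Levels stand side by side only to show the order of size, and the comparison uses ranks and states. A gene was called on in a line when its level was at least 1 in both libraries, and off when it was under 0.1 in both. Each library was also ranked from 0 to 100 over the 18951 genes compared, of 19087 symbols in both tables. A rank difference is the SIGM5 mean percentile minus the K01 mean percentile. With 2 libraries a line, an exact permutation test could not go under p = 0.333.

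The blood lineages of these cells are set by competing groups of transcription factors. GATA1, with KLF1 and TAL1, drives red cell genes such as globins, enzymes of haem synthesis and membrane skeleton proteins. PU.1 (the product of SPI1), with C/EBP factors and IRF8, drives granulocyte and monocyte genes such as granule proteases, the phagocyte oxidase and receptors for microbes and antibodies. HOX genes mark position in the embryo and are used again in blood progenitors.

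The promoters of 4 genes that separate the lines are shown first, from 250 bases before to 50 bases after a transcript start. For each gene 1 start was taken, and other starts of the gene were not searched. The genes are RETN and IRF8, on in SIGM5 and off in K01, and PRAME and RHAG, on in K01 and off in SIGM5. The sequences are from RefSeq on GRCh38.p14, 5′ to 3′ on the strand of the gene. Capitals mark matches, on either strand, to short runs of letters that factors of these lineages bind. The letters searched were GAGGAAG for PU.1. For C/EBP factors they were TTGCNCA, where N is any base. For GATA factors either AGATAA, the usual form, or its variant TGATAA counted. For KLF1 they were CCNCACC. For the TATA box they were TATAAA.
RETN, chr19:7668799-7669098, plus strand: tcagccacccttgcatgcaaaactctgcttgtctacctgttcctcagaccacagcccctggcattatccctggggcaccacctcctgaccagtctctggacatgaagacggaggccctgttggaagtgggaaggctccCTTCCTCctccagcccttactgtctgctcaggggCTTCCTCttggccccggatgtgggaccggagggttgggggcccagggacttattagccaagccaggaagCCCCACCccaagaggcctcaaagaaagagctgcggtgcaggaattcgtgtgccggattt
IRF8, chr16:85902580-85902879, plus strand: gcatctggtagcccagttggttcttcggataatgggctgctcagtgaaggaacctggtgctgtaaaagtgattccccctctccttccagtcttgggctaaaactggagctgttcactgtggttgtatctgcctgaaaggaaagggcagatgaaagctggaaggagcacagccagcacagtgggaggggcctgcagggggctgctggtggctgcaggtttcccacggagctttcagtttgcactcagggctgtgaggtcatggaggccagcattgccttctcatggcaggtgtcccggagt
PRAME, chr22:22559216-22559515, minus strand: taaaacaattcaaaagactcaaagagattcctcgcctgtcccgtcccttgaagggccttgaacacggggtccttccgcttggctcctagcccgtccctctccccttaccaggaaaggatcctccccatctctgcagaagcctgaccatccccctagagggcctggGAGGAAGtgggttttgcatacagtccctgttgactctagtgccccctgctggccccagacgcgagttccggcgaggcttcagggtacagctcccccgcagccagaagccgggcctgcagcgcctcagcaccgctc
RHAG, chr6:49636790-49637089, minus strand: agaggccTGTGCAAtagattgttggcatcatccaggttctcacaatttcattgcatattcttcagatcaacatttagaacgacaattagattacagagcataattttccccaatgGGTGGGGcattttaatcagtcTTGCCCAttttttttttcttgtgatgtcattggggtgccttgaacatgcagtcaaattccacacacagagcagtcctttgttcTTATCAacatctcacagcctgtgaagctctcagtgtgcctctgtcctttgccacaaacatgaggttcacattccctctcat
The RETN promoter held 2 PU.1 matches, which began at positions -112 and -78 from the start used, and 1 KLF1 match at position -9. The RHAG promoter held 1 GATA match at position -31, 1 KLF1 match at position -135 and C/EBP matches at positions -243 and -114. PRAME had 1 PU.1 match at position -85, and IRF8 had 0 matches to the 5 motifs in the window shown.

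Across the 18951 genes the ranks of SIGM5 and K01 libraries had Spearman correlations of 0.804 to 0.806. The 2 SIGM5 libraries correlated at 0.979 with each other, and the 2 K01 libraries at 0.975. Genes are not independent, so these values carry no p. In SIGM5, 9544 genes (50.4%) were on and 6941 (36.6%) were off, and in K01 9814 (51.8%) were on and 6028 (31.8%) were off. The lines shared 8421 genes on in both (44.4%) and 4889 off in both (25.8%). There were 403 genes on in SIGM5 and off in K01 (2.13%) and 656 genes on in K01 and off in SIGM5 (3.46%). By rank, 930 genes (4.91%) stood at least 25 percentile points higher in both SIGM5 libraries than in either K01 library, and 992 (5.23%) at least 25 points lower. The median difference over all genes was -1.23 points, which is the value of a gene at 0 in all 4 libraries. All 20 housekeeping genes listed, GAPDH and ACTB among them, were on in both lines, with a median difference of 0.18 points.

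**Figure D1:**
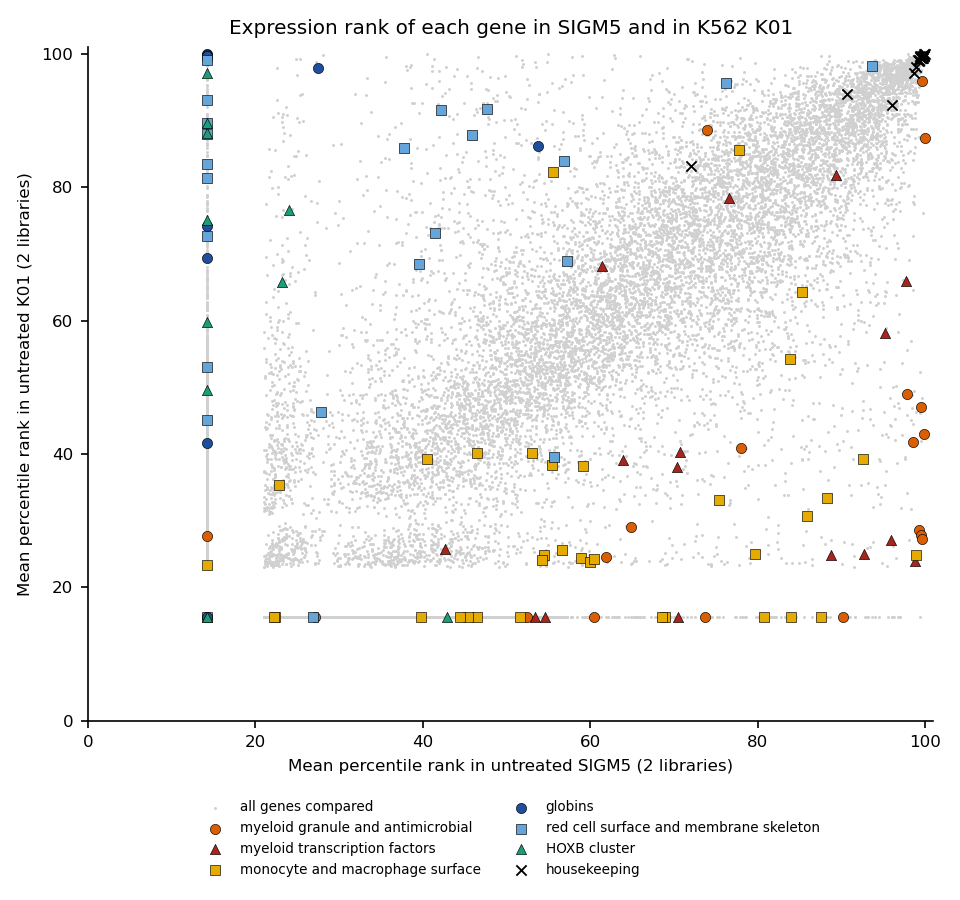
Mean percentile rank of each gene compared in the 2 untreated SIGM5 libraries (horizontal axis) and the 2 untreated K01 libraries (vertical axis), with 7 gene lists coloured. Many members of the myeloid lists lie to the lower right, where the SIGM5 rank is high. Most globins and HOXB genes and some red cell genes lie at the left edge, where SIGM5 counts are 0, and the lines of points at 14.3 and 15.5 are genes listed at 0 in 1 of the lines.

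Some zeros in the SIGM5 table concern genes that nearly every cell uses, which limits what off can mean there. In the stretch of chromosome 6 around the HLA genes, which begins at TRIM27, 122 of 166 genes were off in SIGM5 and 54 of 166 in K01. The translation initiation factor EIF4A1 was listed at 0 in both SIGM5 libraries, against 478 and 449 FPKM in K01. Of 354 genes of core complexes such as the ribosome, proteasome and splicing machinery, 9 were at 0 in SIGM5 and 4 in K01. Genes in this stretch, or with at least 50% of their 75-base stretches also present in another gene, made up 9 of the 403 genes and 102 of the 656. Without them 394 genes were on in SIGM5 and off in K01, and 554 were on in K01 and off in SIGM5. Why these genes are at 0 was not tested.

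SIGM5 cells expressed the granule and antimicrobial proteins of immature granulocytes and monocytes at very high levels. Of 22 such genes compared, 17 were on in SIGM5 and 4 in K01; 5 were on in SIGM5 and off in K01, and 0 the other way round. The median difference was 37.3 points. LYZ, lysozyme, was the most abundant gene of SIGM5 with 13668 and 16996 CPM per kb, and had 35.1 and 30.8 FPKM in K01. MPO, myeloperoxidase, had 3591 and 3033 CPM per kb in SIGM5, against 0.689 and 0.362 FPKM in K01. The serine proteases of azurophil granules lay in the same order of size. PRTN3, proteinase 3, had 1485 and 1312 CPM per kb in SIGM5 and 1.56 and 0.683 FPKM in K01. ELANE, neutrophil elastase, had 329.7 and 296 CPM per kb in SIGM5 and 0.432 and 0.378 FPKM in K01. By rank, 13 of the 22 genes stood at least 25 percentile points higher in SIGM5 and 0 at least 25 points lower. Over all genes compared these shares were 4.91% and 5.23%. In bulk libraries, fewer cells with a transcript and less of it per cell cannot be told apart, so the low K01 values may stand for either.

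The ribonucleases and calcium-binding proteins of myeloid granules and cytosol set the lines furthest apart within this list. RNASE3, eosinophil cationic protein, had 51.7 and 50.3 CPM per kb in SIGM5 and was listed at 0 in both K01 libraries, a rank difference of 74.8 points. RNASE2, eosinophil-derived neurotoxin, had 1596 and 1722 CPM per kb in SIGM5 and 0 and 0.256 FPKM in K01. S100A8 and S100A9 form calprotectin, which binds metal ions. S100A8 had 566 and 625 CPM per kb in SIGM5 and 0 and 0.426 FPKM in K01, and S100A9 had 1248 and 1281 CPM per kb in SIGM5 and 0.277 and 0 FPKM in K01. S100A12, BPI, MMP9 and the defensin DEFA4 were, with RNASE3, the 5 genes on in SIGM5 and off in K01. LTF (lactoferrin) and LCN2 (lipocalin), found in secondary granules, were listed at 0 in both SIGM5 libraries, and in K01 LTF had 0.27 and 0 FPKM while LCN2 was also at 0. SERPINB1, an inhibitor of these proteases, went the other way with 13.1 and 14.6 CPM per kb in SIGM5 and 35.8 and 37.3 FPKM in K01. The mast cell, basophil and eosinophil list showed no such pattern: of 12 genes 1 was on in SIGM5 and 1 in K01, and CPA3 and CLC were at 0 in all 4 libraries.

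All but EGR2 of 16 myeloid transcription factors were on in SIGM5, and 5 were on in K01. IRF8, which directs monocyte and dendritic cell fates, had 362 and 345 CPM per kb in SIGM5 and 0.0422 and 0 FPKM in K01. CEBPA, the C/EBP factor of early granulocytes, had 128 and 112 CPM per kb in SIGM5 and 0.214 and 0 FPKM in K01. GFI1, a repressor needed by neutrophils, had 69.7 and 66.96 CPM per kb in SIGM5 and 0.0832 and 0 FPKM in K01. CEBPE, the C/EBP factor of maturing granulocytes, had 45.5 and 41.8 CPM per kb in SIGM5 and 0.0772 and 0 FPKM in K01. IRF8, GFI1, CEBPE, IRF5 and TFEC were among the 6 members on in SIGM5 and off in K01, and none went the other way. SPI1 was on in both lines, with 209.7 and 207 CPM per kb in SIGM5 and 9.49 and 6.23 FPKM in K01, ranks of 97.8 and 65.9. CEBPB, RUNX1 and NFIL3 were on in both lines and differed by -1.75, 7.64 and -6.73 points. The median difference of the list was 34.7 points.

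**Figure D2:**
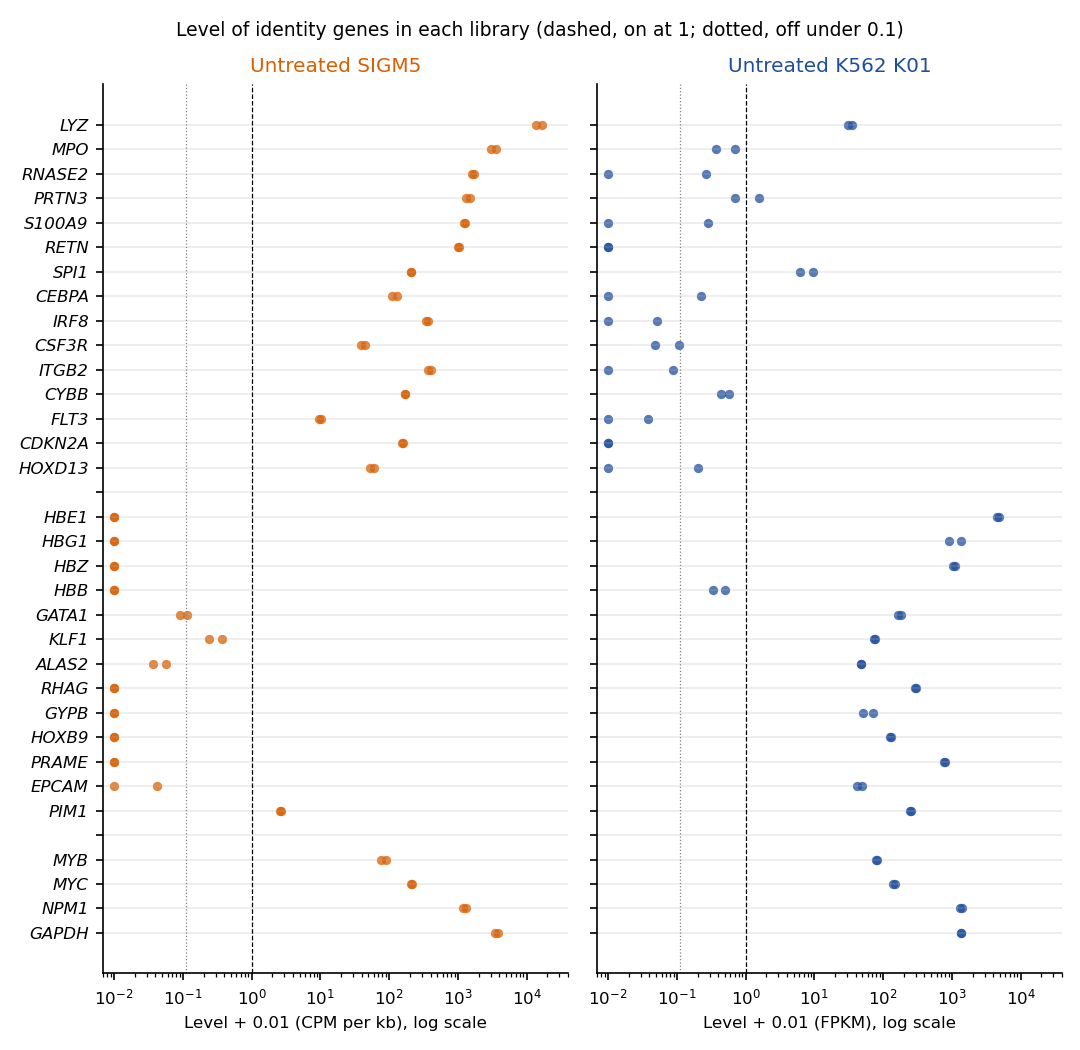
Level of 32 genes in each untreated library, with SIGM5 on the left in CPM per kb and K01 on the right in FPKM, both on a log scale after adding 0.01; each point is 1 library. The first block is high in SIGM5, the second block is high in K01, and the 4 genes of the last block, MYB, MYC, NPM1 and GAPDH, are high in both.

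Surface receptors of monocytes and macrophages followed the same direction, with 14 of 36 on in SIGM5 and off in K01 and 0 in the reverse. ITGB2, the beta chain shared by the leukocyte integrins, had 403 and 367 CPM per kb in SIGM5 and 0.0766 and 0 FPKM in K01. LILRB4, an inhibitory receptor, had 40.04 and 37.6 CPM per kb in SIGM5, and FCGR1A, the high-affinity receptor for IgG, had 28.8 and 28.3; both were listed at 0 in the K01 libraries. CCR2, the receptor that draws monocytes to CCL2, had 21.2 and 23.5 CPM per kb in SIGM5 and was at 0 in K01. CSF3R, the receptor of granulocyte colony-stimulating factor, had 44.8 and 38.9 CPM per kb in SIGM5 and 0.0373 and 0.0979 FPKM in K01. The other members of the 14 were CD14, CD4, CD86, CLEC12A, CSF2RB, FCGR2B, TLR2, TLR4 and TLR8. CD14, the coreceptor for bacterial lipopolysaccharide, was low even in SIGM5, with 2.61 and 2.41 CPM per kb against 0.0783 and 0 FPKM in K01. Receptors of mature macrophages were near 0 in both lines: CD163 had 0.0141 and 0 CPM per kb in SIGM5 and MRC1, the mannose receptor, was at 0 there, with CD163 at 0 and MRC1 at 0.0208 and 0 FPKM in K01. FCGR2A was the 1 member ranked at least 25 points lower in SIGM5, with 2.92 and 2.94 CPM per kb there and 24.2 and 19.99 FPKM in K01. CD33 and CD68 were on in both lines.

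Among 61 receptors of the LILR, SIGLEC, CLEC, CD300 and PILR families, 7 were on in SIGM5 and off in K01 and 0 the other way. The highest was CLEC5A, an activating lectin receptor of myeloid cells, with 144 and 164 CPM per kb in SIGM5 and 0 in both K01 libraries. CD300LF, CLEC12A, LILRB4, LILRA1, CD300C and SIGLEC7 were the others. Of 26 integrin genes, ITGB2 and ITGA4 were on in SIGM5 and off in K01. ITGA4, the alpha chain of VLA-4, had 104 and 115 CPM per kb in SIGM5 and 0.0177 and 0 FPKM in K01. ITGB5 stood in the reverse order, with 0.0968 and 0.106 CPM per kb in SIGM5 and 14.7 and 14.01 FPKM in K01. Of 58 chemokines and their receptors, CXCR4, CCR2, CCR1 and CCL2 were on in SIGM5 and off in K01, and CCL26 was on in K01 and off in SIGM5. CXCR4, which holds blood progenitors in the marrow, had 45.8 and 50.6 CPM per kb in SIGM5 and was listed at 0 in both K01 libraries. CCL26 was at 0 in SIGM5 and had 3.75 and 3.42 FPKM in K01.

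Phagocytes make reactive oxygen with an oxidase built from membrane and cytosolic subunits. All 6 of its genes were on in SIGM5 and 2 were on in K01. CYBB, the catalytic subunit, had 168 and 169.6 CPM per kb in SIGM5 and 0.429 and 0.564 FPKM in K01. NCF4, a cytosolic subunit, had 8.37 and 7.24 CPM per kb in SIGM5 and 0 in both K01 libraries. NCF1 was also on in SIGM5 and off in K01, but 75.6% of its 75-base stretches occur in other genes. CYBA and RAC2, which have uses outside phagocytes, were on in both lines and differed by 0.74 and 3.16 points.

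Genes of inflammatory sensing were higher in SIGM5 in 11 of 25 by at least 25 points and lower by that margin in 0. CASP1, the protease that matures interleukin 1 beta, had 44.3 and 51.8 CPM per kb in SIGM5, and NLRP3, the sensor that activates it, had 43.5 and 42.3. Both were listed at 0 in the 2 K01 libraries. IL1B itself had 6.33 and 7.48 CPM per kb in SIGM5 and 0 and 0.526 FPKM in K01. The neutrophil chemokine CXCL8 had 43.3 and 69.4 CPM per kb in SIGM5 and 0.829 and 0.363 FPKM in K01, and TNF was off in both lines, although it lies in the stretch with uncertain zeros. CASP1, NLRP3, TLR1, TLR2, TLR4 and TLR8 were the 6 members on in SIGM5 and off in K01. Of 28 interferon-stimulated genes, 6 ranked at least 25 points higher in SIGM5 and 1 lower, and MX1, MX2, OAS2 and OASL were on in SIGM5 and off in K01. MX1 had 1.68 and 1.52 CPM per kb in SIGM5 and 0 in both K01 libraries. ISG15 and STAT2 were on in both lines and differed by 1.63 and 0.43 points, and RSAD2 was at 0 in SIGM5 with 0.47 and 1.03 FPKM in K01.

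Of the 403 genes on in SIGM5 and off in K01, RETN had the highest level. RETN encodes resistin, a secreted protein made by human monocytes, and had 1015 and 1023 CPM per kb in SIGM5 against 0 in both K01 libraries. After ITGB2 and IRF8 came FCER2, the low-affinity receptor for IgE, with 300.2 and 293 CPM per kb in SIGM5 and 0.0811 and 0 FPKM in K01. APP, the amyloid precursor protein, had 221 and 214 CPM per kb in SIGM5 and 0.0636 and 0.0898 FPKM in K01. The histone variant gene H2AFJ had 169.6 and 152 CPM per kb in SIGM5 and 0 in K01. LAMP5, CES1, SERPINB8 and MCEMP1 followed, at 120.2 to 150.03 CPM per kb in the SIGM5 libraries. All 4 were at 0 in K01 except CES1, with 0.0575 and 0 FPKM. CES1 is a carboxylesterase found in monocytes and liver, and SERPINB8 is an intracellular protease inhibitor.

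**Figure D3:**
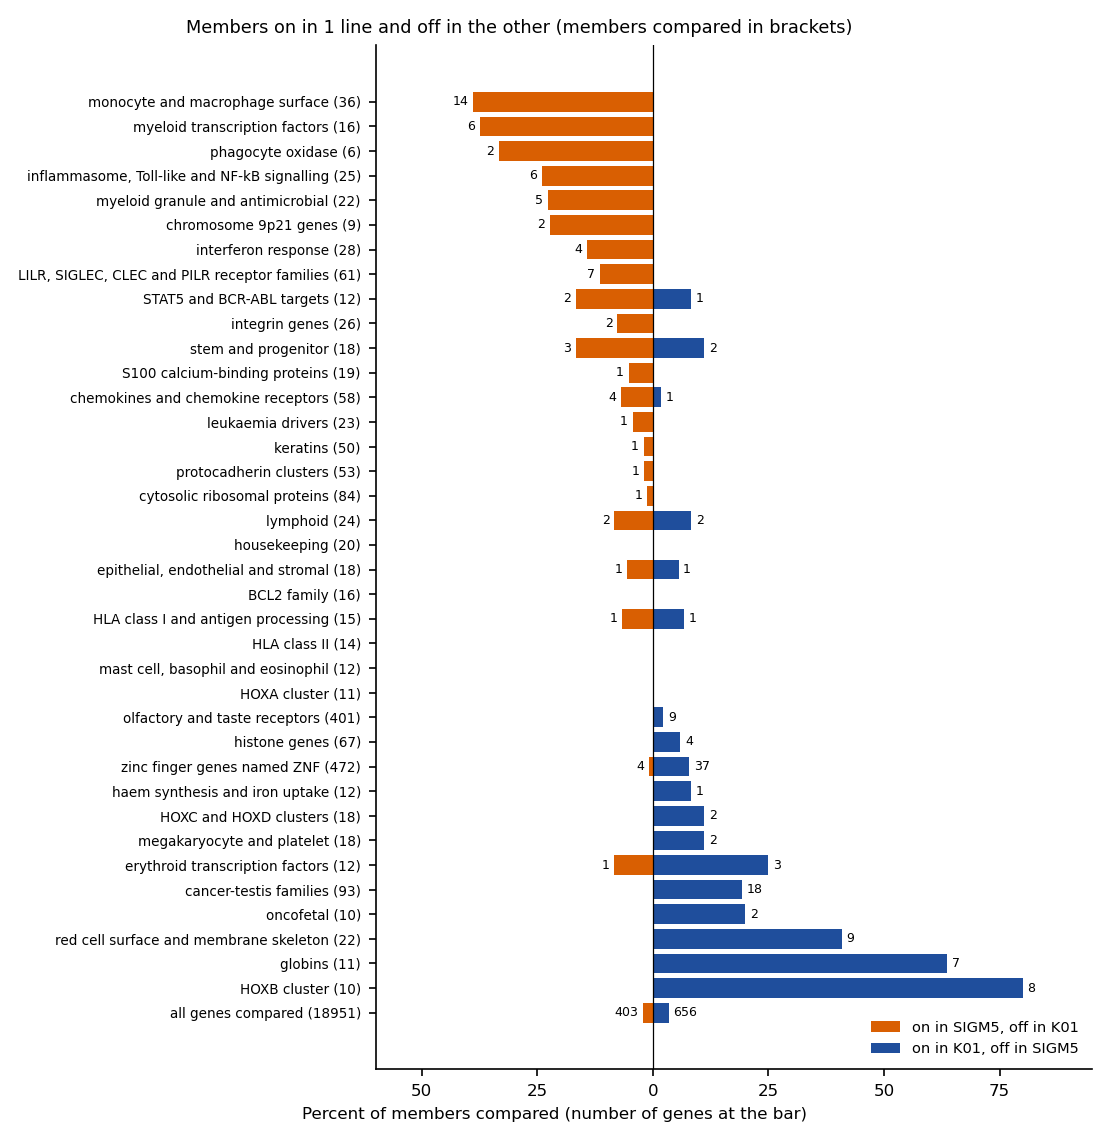
Percent of the members of each reported gene list that were on in SIGM5 and off in K01 (orange, to the left) or on in K01 and off in SIGM5 (blue, to the right), with the number of genes at each bar and the members compared in brackets; the lowest bars give all 18951 genes. Myeloid lists extend to the SIGM5 side, and the HOXB cluster (8 of 10), globins (7 of 11) and red cell genes (9 of 22) extend to the K01 side.

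K01 cells expressed embryonic and fetal globins at the top of their range, and SIGM5 cells had 0 or near 0 counts for nearly all of them. Of 11 globin-related genes, 7 were on in K01 and off in SIGM5 and 0 the reverse, with a median difference of -70.4 points. HBE1, the embryonic epsilon chain, was listed at 0 in both SIGM5 libraries and had 4472 and 4787 FPKM in K01, behind the ribosomal protein genes RPS27 and RPL41 in both libraries. HBG2 and HBG1, the fetal gamma chains, were at 0 in SIGM5 and had 1553 and 2053 FPKM and 918 and 1344 FPKM in K01. HBZ, the embryonic zeta chain, was at 0 in SIGM5 and had 1047 and 1094 FPKM in K01. The adult chains were unequal. HBA1 was at 0 in SIGM5 and had 335 and 361 FPKM in K01, whereas HBB was at 0 in SIGM5 and had only 0.49 and 0.322 FPKM in K01. HBD and AHSP, the chaperone of alpha chains, were the other 2 of the 7, and HBM was at 0 in all 4 libraries. HBQ1, the theta chain, was on in both lines, with 1.28 and 3.55 CPM per kb in SIGM5 and 25.3 and 34.8 FPKM in K01. The gamma pair and the alpha pair are near-identical genes, with 56.2% to 82.7% of their stretches in another gene, so reads may be split between partners.

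The erythroid transcription factors fell into separate groups. GATA1 had 0.0803 and 0.105 CPM per kb in SIGM5 and 185 and 164 FPKM in K01. KLF1, the activator of adult beta globin, had 0.361 and 0.23 CPM per kb in SIGM5 and 74.7 and 77.03 FPKM in K01. GFI1B was at 0 in SIGM5 and had 43.6 and 41.8 FPKM in K01. GFI1B, TAL1 and SOX6 were the 3 of 12 on in K01 and off in SIGM5. Factors that myeloid and stem cells also use were on in both lines. GATA2 had 17.5 and 15.3 CPM per kb in SIGM5 and 54.2 and 49.6 FPKM in K01, and LMO2, MYB and NFE2 differed by 1.66, -0.99 and -13.6 points. BCL11A, a repressor of fetal globin genes, was the 1 factor on in SIGM5 and off in K01, with 12.2 and 11.9 CPM per kb in SIGM5 and 0 in both K01 libraries.

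Haem synthesis was mostly shared, since 11 of 12 genes were on in both lines. The exception was ALAS2, the erythroid form of the first enzyme, with 0.0273 and 0.0478 CPM per kb in SIGM5 and 47.7 and 47.6 FPKM in K01. Its counterpart in other cells, ALAS1, had 42.8 and 43.2 CPM per kb in SIGM5 and 14.1 and 15.6 FPKM in K01. SLC25A37, the mitochondrial iron importer mitoferrin, had 9.79 and 7.28 CPM per kb in SIGM5 and 62.8 and 61.5 FPKM in K01. The transferrin receptor TFRC differed by -0.55 points.

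Of 22 genes of the red cell surface and membrane skeleton, 15 ranked at least 25 points lower in SIGM5 and 0 ranked higher by that margin. RHAG, which carries the Rh complex, was at 0 in both SIGM5 libraries and had 296 and 300.4 FPKM in K01. GYPB, a sialoglycoprotein of the red cell surface, was at 0 in SIGM5 and had 51.8 and 70.6 FPKM in K01. RHAG, GYPB, GYPE, KEL, XK, SPTB and SLC4A1 were among the 9 members on in K01 and off in SIGM5. SLC4A1, the band 3 anion exchanger of mature red cells, was low in K01 too, at 2.45 and 2.73 FPKM, and EPB42 was not on there with 0.462 and 1.17 FPKM. GYPC, EPOR (the erythropoietin receptor), EPB41 and ERMAP were on in both lines. CR1, the complement receptor, ranked 16.1 points higher in SIGM5, with 2.71 and 3.23 CPM per kb there and 0.271 and 0.259 FPKM in K01.

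Megakaryocyte and platelet genes were mixed. GP1BB was at 0 in SIGM5 with 61.3 and 89.5 FPKM in K01, although 62.5% of its stretches occur in another gene, and RAB27B had 0.0073 and 0.0255 CPM per kb in SIGM5 and 4.15 FPKM in both K01 libraries. These were the 2 of 18 on in K01 and off in SIGM5. TUBB1, the platelet tubulin, had 0.409 and 0.345 CPM per kb in SIGM5 and 16.9 and 15.2 FPKM in K01. FLI1, an ETS factor of megakaryocytes, was in the reverse order with 18.8 and 20.1 CPM per kb in SIGM5 and 0.192 and 0.0423 FPKM in K01. PF4 and SELP were at 0 in all 4 libraries.

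The HOX clusters separated the lines by cluster. Of 10 HOXB genes, 8 were on in K01 and off in SIGM5, and 0 were on in SIGM5. HOXB9 was at 0 in SIGM5 and had 125 and 130.0 FPKM in K01. HOXB2 and HOXB4 were also at 0 in SIGM5, with 41.98 and 38.4 FPKM and 34.9 and 34.95 FPKM in K01. HOXB13 was not on in either line. The HOXA genes, which many acute myeloid leukaemias express, were mostly off in both: 7 of 11 were off in SIGM5 and 9 of 11 in K01, and 1 was on in SIGM5 and 0 in K01. In the HOXC and HOXD clusters, HOXC9 and HOXC6 were on in K01 and off in SIGM5, with 5.89 and 6.42 FPKM for HOXC9 in K01. HOXD13, the last gene of its cluster, stood alone in SIGM5 with 60.6 and 53.1 CPM per kb, against 0 and 0.193 FPKM in K01. Its neighbours HOXD12 and HOXD11 had 0.686 and 0.129 and 0.0691 and 0.121 CPM per kb in SIGM5 and were at 0 in K01. MEIS1, a partner of HOX proteins, was at 0 in SIGM5 and had 5.44 and 4.58 FPKM in K01.

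K01 also expressed genes that adult tissues keep for the germ line. Of 93 genes in cancer-testis families, 18 were on in K01 and off in SIGM5 and 0 the reverse, and 92 were off in SIGM5. PRAME was at 0 in SIGM5 and had 788 and 778 FPKM in K01. PAGE5, SSX1 and MAGEC2 were at 0 in SIGM5 and had 135 and 117 FPKM, 55.7 and 55.6 FPKM and 47.3 and 41.9 FPKM in K01. The others of the 18 were MAGEA1, MAGEA3, MAGEA6, MAGEA8, MAGEA12, MAGEB1, MAGEB2, MAGEB16, MAGEC1, CTAG2, GAGE1, PAGE1, PAGE2B and CT45A10. Of the 93, 44 share at least 50% of their stretches with another gene, so the member counted is uncertain for those. SSX2IP, which the family pattern took in by its name, was the only one on in SIGM5.

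Of 401 olfactory and taste receptors, 0 were on in SIGM5 and 9 in K01, and all 9 were off in SIGM5. This share is under the 3.46% of all genes compared that were on in K01 and off in SIGM5. OR51B5 and OR51B4, whose genes lie next to the beta globin cluster, were at 0 in SIGM5 and had 112 and 113 FPKM and 56.3 and 56.03 FPKM in K01. OR51B2, OR51I2, OR52A5 and OR52D1, of the same stretch of chromosome 11, had 0 counts in SIGM5 and 1.08 to 3.04 FPKM in the K01 libraries. Of 472 genes named ZNF, 4 were on in SIGM5 and off in K01 and 37 on in K01 and off in SIGM5. ZNF516 was the highest of the 4, with 37.01 and 33.6 CPM per kb in SIGM5 and 0.0246 and 0 FPKM in K01. ZNF239 and ZNF440 were among the 37, at 0 in SIGM5 with 7.13 and 6.25 FPKM and 7.07 and 6.17 FPKM in K01.

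Further genes led the 656 that were on in K01 and off in SIGM5. After the globins, RHAG and PRAME, the highest levels were those of CLIC1, EIF4A1, MTRNR2L1 and CSNK2B. Nearly every cell expresses CLIC1, EIF4A1 and CSNK2B, which belong to the uncertain zeros described above. CLIC1 had 0.0884 and 0.0387 CPM per kb in SIGM5 and 1001 and 934 FPKM in K01. MTRNR2L1 had 0 and 0.0597 CPM per kb in SIGM5 and 343 and 535 FPKM in K01. MTRNR2L1 and MTRNR2L10 are nuclear copies of mitochondrial ribosomal RNA, so reads from the mitochondrial transcript may be counted there. GTSF1, which acts with small RNAs against transposons in the germ line, was at 0 in SIGM5 and had 226 and 231 FPKM in K01. ALDH1A2, which makes retinoic acid, was at 0 in SIGM5 and had 225 and 215 FPKM in K01. HEMGN, an erythroid nuclear protein, had 0 and 0.0206 CPM per kb in SIGM5 and 154 and 164 FPKM in K01.

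Progenitor genes did not go 1 way. FLT3, the receptor of early myeloid progenitors, had 9.49 and 10.3 CPM per kb in SIGM5 and 0.0285 and 0 FPKM in K01. SOX4 and CD38 were on in SIGM5, with 15.7 and 15.03 and 2.43 and 3.3 CPM per kb, and at 0 in K01. MECOM, a factor of stem cells and of some leukaemias, was at 0 in SIGM5 and had 7.21 and 5.95 FPKM in K01. CD44, an adhesion receptor, had 209 and 219 CPM per kb in SIGM5 and 0.695 and 1.06 FPKM in K01. CD34, PROM1, ERG and SPINK2 were at 0 in all 4 libraries, and KIT was at 0 in SIGM5 with 0.125 and 0.0549 FPKM in K01. Of 10 oncofetal genes, DLK1 and IGF2BP2 were on in K01 and off in SIGM5. DLK1 had 0.0734 and 0 CPM per kb in SIGM5 and 71.4 and 62.04 FPKM in K01. LIN28B, IGF2BP1 and IGF2BP3, RNA-binding proteins of fetal cells, were on in both lines.

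Among markers of other cell types, few lymphoid genes were on in either line, whereas several epithelial genes were on together in K01. Among 24 lymphoid genes, 18 were off in SIGM5 and 13 in K01. PAX5, the B cell factor, had 18.04 and 19.2 CPM per kb in SIGM5 and 0 in both K01 libraries, while MS4A1 and EBF1 were at 0 in all 4. GNLY, granulysin, was on in SIGM5 with 7.44 and 7.84 CPM per kb and at 0 in K01. CD3D, a T cell receptor chain, was at 0 in SIGM5 and had 13.9 and 12.9 FPKM in K01, where CD3E had 0 and 0.104 FPKM. PRF1 had 0.0425 and 0.0558 CPM per kb in SIGM5 and 1.49 and 1.42 FPKM in K01. EPCAM, an epithelial adhesion molecule also made by early erythroid cells, had 0.0325 and 0 CPM per kb in SIGM5 and 41.7 and 49.4 FPKM in K01. The keratins KRT8 and KRT18 had 0.0844 and 0.123 CPM per kb and 0.0678 and 0.475 CPM per kb in SIGM5, against 196 and 186 FPKM and 201 and 164 FPKM in K01. KRT19 had 63.7 and 58.6 FPKM in K01. In SIGM5 it had 18 and 117 counts, or 0.953 and 5.42 CPM without division by length. Of 18 epithelial, endothelial and stromal genes compared, 5 were on in K01 and 2 in SIGM5, and 11 were off in each line. CDH5, KDR, TEK and LUM, of endothelium and stroma, were at 0 in all 4 libraries. KRT5 was called on in SIGM5 and off in K01, but its SIGM5 libraries were far apart, at 1.15 and 7.95 CPM per kb.

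Genes linked to the known lesions of K562 also differed. As background, K562 carries the BCR-ABL1 fusion and has lost CDKN2A on the short arm of chromosome 9. CDKN2A, the cell cycle inhibitor locus, had 160.4 and 156 CPM per kb in SIGM5 and 0 in both K01 libraries. Of 9 genes compared around it, 4 were on in SIGM5, and in K01 0 were on and 7 were off. MTAP had 13.7 and 16.7 CPM per kb in SIGM5 and 0 and 0.289 FPKM in K01, and KLHL9 had 5.81 and 6.62 CPM per kb in SIGM5 and 0 in K01. FOCAD, at the edge of the group, had 5.77 and 5.73 CPM per kb in SIGM5 and 0.335 and 0.255 FPKM in K01.

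Single genes of growth arrest, cell death and stress also differed, and those given here were picked with their values known. CDKN1A, which encodes the cell cycle inhibitor p21, had 162 and 151 CPM per kb in SIGM5 and 5.08 and 5.88 FPKM in K01. MDM2, a ubiquitin ligase, had 270.3 and 328 CPM per kb in SIGM5 and 10.9 and 12.7 FPKM in K01. PHLDA3 had 65.9 and 54.6 CPM per kb in SIGM5 and 0 in both K01 libraries, and FAS, a death receptor, was also on in SIGM5 and off in K01. GDF15, a secreted stress factor, was in the reverse order, with 0.265 and 0.27 CPM per kb in SIGM5 and 183 and 156 FPKM in K01.

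A list of targets of STAT5 and of BCR-ABL1, which signals through STAT5, had a median difference of -20.5 points over 12 genes. Of these, 4 ranked at least 25 points lower in SIGM5 and 2 at least 25 points higher. By state, 10 were on in each line, with 2 on in SIGM5 and off in K01 and 1 the reverse. PIM1, a survival kinase, had 2.62 CPM per kb in both SIGM5 libraries and 250.1 and 255 FPKM in K01. SOCS2, a feedback inhibitor, had 0.0443 and 0.233 CPM per kb in SIGM5 and 77.9 and 78.98 FPKM in K01. BCL2L1, which encodes the survival protein BCL-XL, had 5.85 and 5.18 CPM per kb in SIGM5 and 94.4 and 105 FPKM in K01. BCL2 was in the reverse order, with 26.6 and 27.1 CPM per kb in SIGM5 and 1.44 and 1.78 FPKM in K01. MCL1, the third survival protein of the family, was on in both with a difference of 2.32 points. BMF, which opposes these proteins, had 67.6 and 64.5 CPM per kb in SIGM5 and 0.595 and 1.01 FPKM in K01. SOCS1 was on in K01 and off in SIGM5. OSM and DUSP6 were on in SIGM5 and off in K01, with 10.9 and 10.2 CPM per kb for DUSP6 in SIGM5 and 0 in both K01 libraries.

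Among 23 genes mutated or fused in leukaemias, 20 were on in both lines and FLT3 alone was on in 1 and off in the other. The TET genes, which encode the enzymes that oxidise methylcytosine, had different orders in the lines. TET1 had 0.49 and 0.544 CPM per kb in SIGM5 and 5.8 and 5.93 FPKM in K01. TET2 had 3.89 and 4.13 CPM per kb in SIGM5 and 1.99 and 2.4 FPKM in K01, and TET3 had 17.4 and 16.5 CPM per kb in SIGM5 and 6.69 and 6.54 FPKM in K01. Per length, TET3 was the highest of the 3 in both libraries of each line. The lowest was TET1 in both SIGM5 libraries and TET2 in both K01 libraries. In rank TET1 stood 16.3 points lower in SIGM5, and TET2 and TET3 stood 6.6 and 13.3 points higher. MYC, NPM1 and IDH2 differed by 0.26, -0.15 and 2.16 points.

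**Figure D4:**
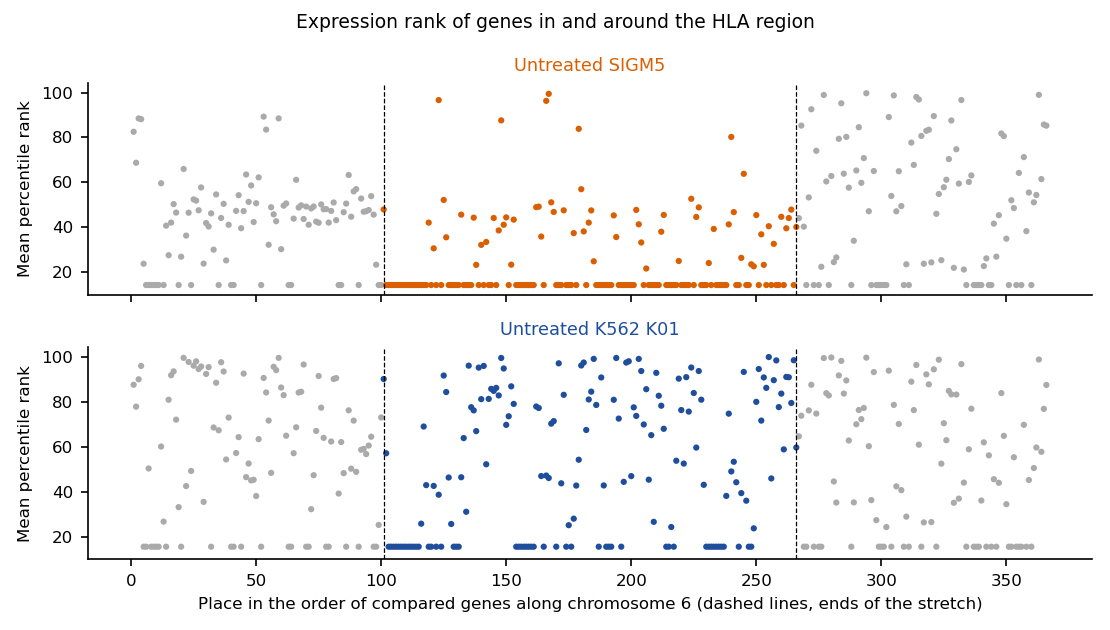
Mean percentile rank of compared genes in their order along chromosome 6, in untreated SIGM5 (top, orange) and untreated K01 (bottom, blue), with 100 genes on each side in grey. Between the dashed lines 11 of 166 genes were on in SIGM5 and 86 of 166 in K01; in the 100 genes before that stretch 31 were on in SIGM5 and 65 in K01, and in the 100 after it 53 were on in each line. Many of the 100 genes before the stretch are histone genes, a group that often ranked lower in SIGM5 and is described separately.

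For the antigen-presenting genes this limit applies to most members, 11 of 15 in the class I list and 11 of 14 in the class II list. HLA-B had 1036 and 971 CPM per kb in SIGM5 and 0.985 and 0.797 FPKM in K01. HLA-E was at 0 in SIGM5 and had 14.4 and 17.9 FPKM in K01, but it lies in the stretch with uncertain zeros. The members outside it were less affected. B2M, the light chain of class I molecules, had 815 and 1089 CPM per kb in SIGM5 and 475 and 485 FPKM in K01. NLRC5, the activator of class I genes, had 20.8 and 19.1 CPM per kb in SIGM5 and 0 and 0.0209 FPKM in K01. CD74, the invariant chain of class II, had 139.6 and 129.6 CPM per kb in SIGM5 and 0.376 and 0.495 FPKM in K01, while CIITA, the class II activator, had 0.169 and 0.0742 CPM per kb in SIGM5 and 0.0393 and 0 FPKM in K01. HLA-DRA had 0 and 0.0379 CPM per kb in SIGM5 and 0 in K01.

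Replication-dependent histone genes, whose messages mostly lack a poly(A) tail, were a large group among the lower ranks of SIGM5. Of 67 histone genes 32 ranked at least 25 points lower in SIGM5 and 4 higher, and 15 were on in SIGM5 against 46 in K01. HIST1H4I, HIST1H2BG and HIST1H4E had 0 and 0.502, 0.276 and 0.0907 and 0.249 and 0.53 CPM per kb in SIGM5, against 30.9 and 29.3, 92.03 and 84.4 and 176 and 129 FPKM in K01. The share of messages without poly(A) in each library was not tested. Of 84 cytosolic ribosomal protein genes, 79 were on in both lines, with a median difference of -0.01 points. RPL21 and RPS18 had at most 0.35 CPM per kb in SIGM5 and at least 1381 FPKM in K01. RPS18 lies in the HLA stretch.

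The states were then looked up in the libraries that the calls had not used. Of the 403 genes on in SIGM5 and off in K01, 384 (95.3%) were also on in SIGM5 given TETi76. In the other K562 groups 265 (65.8%) were off in K18, 267 (66.3%) in K01 given TETi76, 324 (80.4%) in K01 given ascorbate and 255 (63.3%) in K01 given both. Of the 656 genes on in K01 and off in SIGM5, 594 (90.5%) were off in SIGM5 given TETi76. In K562, 563 (85.8%) were on in K18, 568 (86.6%) in K01 given TETi76, 595 (90.7%) in K01 given ascorbate and 573 (87.3%) in K01 given both. In all 5 further groups together, 145 (36.0%) of the 403 and 445 (67.8%) of the 656 kept both states. Such shares over all genes on or all genes off in each line were not computed. Whether the called genes keep their states more often than others is therefore not known. At the off threshold a transcript of 2 kb has only 1.81 and 1.36 reads in the K01 libraries.

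**Figure D5:**
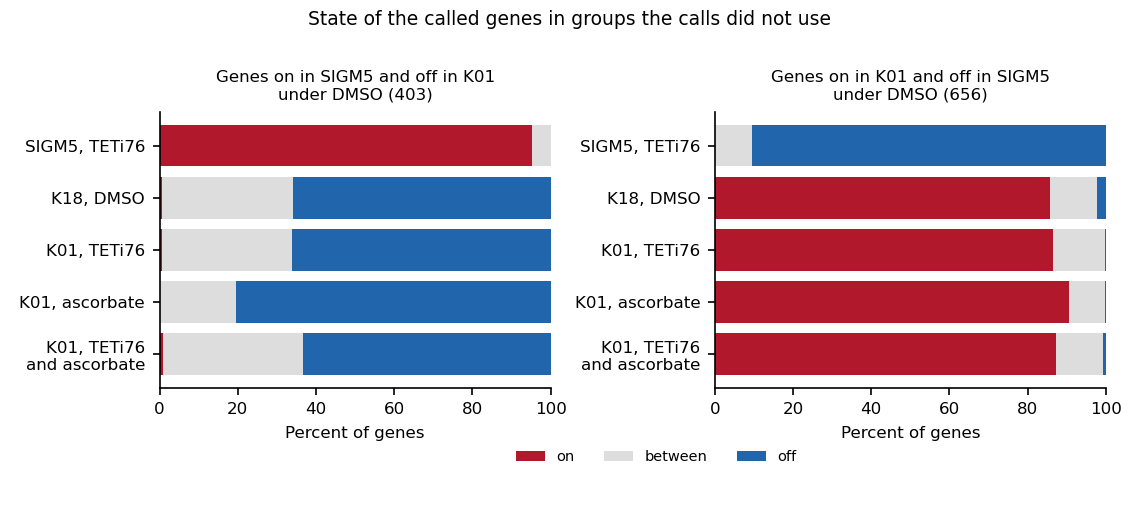
Percent of the 403 genes (left panel) and of the 656 genes (right panel) that were on, between the thresholds or off in the 5 groups that the calls did not use, 2 libraries each. In the left panel the losses in K562 groups are almost all genes that moved between the thresholds, and at most 3 genes were on there.

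Reversals between the K562 clones were few. In K18, C12orf75 and ACPP were on, although off in K01 and on in SIGM5. C12orf75 had 104 and 116 CPM per kb in SIGM5, 3.37 and 1.75 FPKM in K18, and 0 in both K01 libraries. ACPP, prostatic acid phosphatase, had 4.81 and 6.86 CPM per kb in SIGM5, 5.98 and 4.997 FPKM in K18, and 0 in K01. In the other direction 14 of the 656 genes were off in K18. THRB, the thyroid hormone receptor beta, had at most 0.0084 CPM per kb in SIGM5, 0.034 and 0 FPKM in K18, and 7.08 and 5.46 FPKM in K01. PRDM9, which places recombination sites in meiosis, was at 0 in SIGM5 and had 0.0351 and 0.0922 FPKM in K18 and 5.18 and 4.73 FPKM in K01.

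The promoter motifs were counted over all called genes with a 300-base RefSeq promoter, 286 of the 403 and 470 of the 656, and over the 14467 promoters of all genes compared. The GATA motif was in 11.2% of the promoters of genes on in SIGM5 and off in K01, in 14.5% of those on in K01 and off in SIGM5, in 6.8% of those on in both lines and in 12.2% of all. The PU.1 motif was in 19.2%, 16.2%, 13.96% and 14.4% of the same 4 sets. The KLF1 motif was in 39.2%, 38.3%, 35.5% and 35.9%, the C/EBP motif in 12.2%, 10.2%, 10.03% and 10.8%, and the TATA box in 10.1%, 9.36%, 4.5% and 9.33%. The mean GC content was 59.8%, 61.7%, 65.2% and 61.6%. Of the motif shares of the called sets, the furthest from all promoters was PU.1 in genes on in SIGM5 and off in K01, 19.2% against 14.4%. Whether any share differs from that of all promoters was not tested.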

How the data were processed

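Polyadenylated RNA of 4 untreated libraries was analysed. The authors deposited raw read counts per gene for SIGM5. For K562 they deposited FPKM per gene, and whether fragments or single reads (RPKM) were counted is not stated. The submitters' processing notes name hg19, STAR, edgeR 3.24.3 and limma 3.38.3 but tie none of them to a table, and the quantifier is not given in the sources used here. The 14 matrix columns equalled the single-sample tables, and 0 columns were left unmapped.

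Counts became CPM over all rows that name a gene and were divided by the median length of a gene's GENCODE 29 basic transcripts, matched by symbol for 18925 genes and by another name for 26. Of 19087 shared symbols, 9 short RNAs were left out, because length scaling gives them extreme values (2 microRNA entries took 36.4% and 34.6% of the K01 FPKM sums), and 127 had no length. Of the K562 rows, 26 were named by a number and stayed out, at most 0.0636% of the sum in K01. The genome order of genes came from RefSeq (GRCh38.p14) and was used only for neighbours.

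On meant a level of at least 1 in both libraries and off under 0.1 in both. For a transcript of 2 kb, 0.1 stands for 3.78 and 4.31 reads in SIGM5 and 1.81 and 1.36 in K01, so off is less firm in K01. A count of 0 in SIGM5 allows up to 3 counts, 0.159 and 0.139 CPM, for counting error only. The K01 depth is approximate: 43.0% and 46.5% of 632 and 518 low values lay within 0.1 of a whole read. Percentiles gave ties their mean rank. The states were checked on simulated data in which genes on in both lines were set to 0 in 1 line. That check covers the calling steps only, and cannot address the uncertain zeros or the unlike units of the lines. Analyses used Python 3.11.15, pandas 2.3.3, numpy 2.4.6, scipy 1.17.1 and matplotlib 3.10.9.

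The libraries, the 38 gene lists and the rule for naming genes were chosen with earlier results of these data known. The rule named the 12 called genes per direction with the highest level, the most abundant genes, up to 4 list members with the largest rank difference, defining members near 0, members on in 1 line and off in the other, and TET1, TET2 and TET3. Further members, the genes on in K18, the genes named ZNF and the uncertain zeros were named after their values were seen. Some genes and 1 list are not reported here. Promoters were those of the highest named genes in RefSeq. CLIC1 was passed over because it lies in the HLA stretch. HBE1, HBG2 and ITGB2 were not shown. Alternatives covered the length scaling, thresholds, gene sets and each library left out.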

Additional observations from a re-analysis of the deposited data

How the results depend on the processing

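No paired analysis was possible because no test was run between the lines, whose tables were normalized separately. Of 82 alternative values for the 7 main counts and correlations, 71 stayed within 1.5 times the main count or within the spread of the libraries and 11 did not. Leaving out each library was among those that stayed. Taking only 0 as off left 268 genes on in SIGM5 and off in K01 and 347 the other way, and taking under 0.5 gave 707 and 1000. A margin of 15 percentile points gave 1957 genes ranked higher and 1915 ranked lower in SIGM5, and 40 points gave 328 and 394. The mean correlation between the lines, 0.8049, was 0.7966 for CPM without length, 0.624 among genes at 1 or more in a library and 0.8147 without genes of the HLA stretch or with shared sequence. The last set and the longest transcript as length were added after seeing the data.

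Of 304 list medians recomputed, 198 stayed within the spread of the libraries, 96 moved without a change of sign and 10 changed sign. Among genes at 1 or more in a library the medians were 18.06 for mast cell and eosinophil genes, 58.74 for HLA class II, 17.94 for stem and progenitor genes, 44.67 for chemokines, 10.07 for HOXA, 8.58 for keratins and 27.81 for protocadherins, against -1.23 each. That set drops the genes at 0 in all 4 libraries. The S100 median was -1.23 for CPM without length, against 9.09, and it was 18.59 without the first SIGM5 library and 4.39 without the second. Without genes of the HLA stretch or with shared sequence the median was 19.07 for HLA class II and 3.16 for HOXA.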

Other observations

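The 2 untreated SIGM5 libraries differed in genes of stratified epithelium. Among 9818 genes with at least 50 counts in 1 of these libraries, 11 had at least 3 times the CPM in the second library and 0 had at least 3 times the CPM in the first. KRT5, a basal keratin, had 55 counts in the first and 434 in the second. KRT6A had 47 and 313, KRT17 had 13 and 205, and KRT14 had 3 and 115. S100A2, DSP (desmoplakin), SFN (stratifin) and KRT19 were further genes of this kind, and LACTB2, CCDC39 and LNX1 were the rest. The SIGM5 libraries given TETi76 had 269 and 197 counts for KRT5 and 87 and 28 for KRT14, between those of the untreated libraries. In K01, KRT5, KRT6A and KRT14 were listed at 0, and KRT19 had 63.7 and 58.6 FPKM. The source of these transcripts was not tested. The rule behind this count was chosen after the data were seen.

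MT1F, MT1E and MT1H encode metallothioneins, small proteins that bind zinc and copper. MT1F had 81.8 and 99.6 CPM per kb in SIGM5, MT1E had 73.98 and 72.6 and MT1H had 51.4 and 58.1. All 3 were listed at 0 in both K01 libraries. VCAN (versican) and CD93, which monocytes make, had 49.9 and 49.8 and 57.7 and 54.1 CPM per kb in SIGM5, against 0 and 0.0147 and 0.0958 and 0.042 FPKM in K01. MYL4, a myosin light chain of embryonic muscle, had 0 and 0.0542 CPM per kb in SIGM5 and 133 and 107 FPKM in K01. CTCFL, a germ line relative of the insulator protein CTCF, was at 0 in SIGM5 and had 69.1 and 68.4 FPKM in K01. PKLR, the red cell and liver pyruvate kinase, was at 0 in SIGM5 and had 60.6 and 51.4 FPKM in K01. These genes were picked after their values were seen.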
